A study of Homo sapiens with 2 samples.

Results

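The ERK feedback inhibitors are genes that ERK signalling switches on and whose proteins then dampen the same cascade. The group described here holds 8 genes, taken by symbol from the deposited table of 39720 symbols: the phosphatases DUSP4, DUSP5 and DUSP6, the sprouty genes SPRY1, SPRY2 and SPRY4, and the spred genes SPRED1 and SPRED2. All 8 were found, and all 8 had at least 30 estimated counts in the higher library, as 13850 genes did (the assessed genes). RNA was sequenced from A549 cells, a human lung adenocarcinoma line, in 2 libraries. One came from cells given lentivirus with a negative control hairpin (shNC), and the other from cells given lentivirus with a hairpin against DEPDC1B (shDEPDC1B), a DEP domain protein whose role in this cancer the series asks about. Polybrene at 5 µg/mL was used for both, and cells were collected on day 2. Neither the hairpin sequences nor the number of cultures is given in the sources used here, and selection of infected cells is not described there.

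In the ERK cascade, an activated growth factor receptor loads RAS with GTP, RAF kinases are recruited, and MEK and then ERK are phosphorylated. DUSP4 and DUSP5 are phosphatases that act on MAP kinases in the nucleus, and DUSP6 dephosphorylates ERK in the cytoplasm. Sprouty proteins act between the receptor and RAF, in part by binding adaptors and the ubiquitin ligase CBL. Spred proteins bring the RAS-inactivating protein neurofibromin (NF1) to the membrane. The transcripts of these genes are widely read as a record of ERK activity, in lung cancer cells among others.

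With 1 library per group there was no replicate check and no test of the conditions, and a difference below is one between 2 libraries. A log2 ratio is the base-2 logarithm of the TMM-scaled level in shDEPDC1B over that in shNC. Square brackets hold exact Clopper-Pearson 95% intervals for ratios and shares and exact Poisson 95% intervals for levels, and they cover counting error only. A gene counted as called, higher or lower, when it differed by 1.5-fold or more and its interval left out equality. By this rule 19.6% of the 13850 assessed genes were lower in shDEPDC1B and 19.2% higher, so such a call was common in these libraries.

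Of the 8 genes 2 were called lower, SPRED2 and SPRY4, and 0 were called higher, a share of 25.0% lower beside 19.6% over all assessed genes. SPRED2 was 2.42-fold lower and SPRY4 1.62-fold lower. The log2 ratio was below 0 for 6 of the 8, and the interval lay wholly below 0 for 5 and wholly above 0 for 1, SPRY2. Over all assessed genes 48.1% had a log2 ratio below 0, 34.9% an interval wholly below 0 and 38.9% one wholly above 0. The median log2 ratio of the 8 was -0.33, against 0.04 for all assessed genes. Of the 7 ratios between genes of a family, 6 differed between the libraries beyond counting error. The share over other pairs of genes was not computed, and the interval held equality for only 26.2% of all assessed genes. These pair ratios are not corrected for transcript length: after a fit on length and GC content DUSP4, at -0.33, was above DUSP5, at -0.58.

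The promoters of SPRED2 and SPRY4, the genes called lower, and of SPRY2, the gene with its interval above equality, are shown because these 3 genes mark both ends of the range. The sequences are from RefSeq (GRCh38.p14), whose promoter table was used for 6 of the 8 genes. Each is the 250 bases before the most upstream start in that table, read 5′ to 3′ on the gene's strand. SPRED2 lies at chr2:65432600-65432849 on the minus strand, SPRY4 at chr5:142324248-142324497 on the minus strand and SPRY2 at chr13:80341127-80341376 on the minus strand. The SPRY4 window lies inside the gene as GENCODE 29 annotates it, whose end on this strand is at 142326455. Capitals mark the ETS core CCGGAA and TGACG, a core of the cAMP response element, each found on either strand.
SPRED2: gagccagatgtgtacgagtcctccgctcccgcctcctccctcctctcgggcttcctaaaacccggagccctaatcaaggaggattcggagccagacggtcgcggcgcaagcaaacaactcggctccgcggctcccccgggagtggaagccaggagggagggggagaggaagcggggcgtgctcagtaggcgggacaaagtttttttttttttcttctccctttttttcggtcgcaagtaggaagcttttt
SPRY4: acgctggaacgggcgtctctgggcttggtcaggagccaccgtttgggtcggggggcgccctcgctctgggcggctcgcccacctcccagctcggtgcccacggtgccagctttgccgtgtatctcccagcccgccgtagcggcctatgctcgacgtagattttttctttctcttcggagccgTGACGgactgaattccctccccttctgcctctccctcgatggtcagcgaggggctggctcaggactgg
SPRY2: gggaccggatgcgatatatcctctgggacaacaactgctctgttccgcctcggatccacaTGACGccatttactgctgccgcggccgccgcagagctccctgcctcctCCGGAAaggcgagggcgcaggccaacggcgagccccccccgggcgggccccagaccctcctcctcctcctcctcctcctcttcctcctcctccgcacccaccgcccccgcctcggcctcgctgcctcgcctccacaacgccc

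In these windows SPRY2 held 1 ETS core, which begins 142 bases before the start, and 1 TGACG, which begins 190 bases before it. SPRY4 held 1 TGACG, 68 bases before the start, and SPRED2 held neither word. Of the 10 windows of the 6 genes used 2 held CCGGAA and 2 held TGACG, while of all 35116 RefSeq windows of this length 14.5% held the first and 21.2% the second. The AP-1 word TGANTCA, the full cAMP response element TGACGTCA (which contains TGACG), the Capicua word TGAATGNA and the CArG box bound by SRF were in 0 of the 10, and in 6.57%, 1.65%, 3.25% and 1.16% of all windows. DUSP5 had no entry in the promoter table and DUSP4 was left out of the search, so these counts cover neither gene. The search says only which letters stand in the windows used. The GC content was 58.8% for SPRED2, 65.6% for SPRY4 and 70.4% for SPRY2, beside a median of 58.0% over all windows.

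Of the spred genes one was called lower. SPRED2 (chromosome 2, 65310851 to 65432637, minus strand, GENCODE 29 on GRCh38) had 963 counts in shNC and 376 in shDEPDC1B. Its level in CPM, counts scaled to a fixed library total, was 49.95 [46.8, 53.2] in shNC and 20.6 [18.6, 22.8] in shDEPDC1B, so the intervals of the libraries did not overlap. In bulk RNA, fewer cells with a transcript and less of it per cell cannot be told apart. The log2 ratio was -1.28 [-1.45, -1.10], and 4.95% of the assessed genes had a lower one. It was the only one of the 8 genes more than 2-fold away from equality. SPRED1 (chromosome 15, 38252326 to 38357249, plus strand), loss of which in the germline causes Legius syndrome, had 716 and 587 counts, or 37.1 CPM [34.5, 40.0] and 32.2 [29.6, 34.9]. Its log2 ratio was -0.21 [-0.37, -0.05], a smaller difference than that of SPRED2. SPRED2 gave 57.4% [54.9, 59.7] of the counts of the pair in shNC and 39.0% [35.9, 42.2] in shDEPDC1B. The ratio of SPRED1 to SPRED2 counts went from 0.744 to 1.56, a 2.10-fold difference that needs no scaling of the libraries (log2 1.07 [0.83, 1.31]). The summed spred level was 87.1 CPM in shNC and 52.8 in shDEPDC1B (log2 ratio of the sums -0.72 [-0.84, -0.61]).

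Among the sprouty genes the 2 with more counts differed in opposite directions. SPRY4 (chromosome 5, 142310427 to 142326455, minus strand) had 353 and 206 counts, which is 18.3 CPM [16.5, 20.3] in shNC and 11.3 [9.80, 12.9] in shDEPDC1B. Its log2 ratio was -0.70 [-0.95, -0.45]. SPRY2 (chromosome 13, 80335976 to 80340951, minus strand), whose protein is known to bind CBL, had 260 and 347 counts, or 13.5 CPM [11.9, 15.2] and 19.02 [17.1, 21.1]. Its log2 ratio of 0.50 [0.26, 0.73] was the highest of the 8, at 1.41-fold and so short of the call. SPRY1 (chromosome 4, 123396795 to 123403760, plus strand) had only 56 and 43 counts, and no difference was detectable at this depth (log2 ratio -0.30 [-0.91, 0.30]). SPRY4 gave 52.8% [48.9, 56.6] of the sprouty counts in shNC and 34.6% [30.7, 38.5] in shDEPDC1B, and SPRY2 gave 38.9% [35.2, 42.7] and 58.2% [54.1, 62.2]. The ratio of SPRY2 to SPRY4 counts was 0.737 in shNC and 1.68 in shDEPDC1B (log2 difference 1.19 [0.84, 1.54]). These counts are not corrected for length, and per kilobase of the longest transcript SPRY2 was above SPRY4 in both libraries. Per kilobase of the median coding transcript SPRY2 and SPRY4 were at 5.60 and 7.70 CPM in shNC and at 7.89 and 4.75 in shDEPDC1B, so their order in shNC depends on the length used. The summed sprouty level was 34.7 CPM in shNC and 32.7 in shDEPDC1B, with a log2 ratio of -0.09 [-0.25, 0.075] whose interval holds equality.

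Of the phosphatase genes DUSP4 and DUSP5 were the most abundant of the 8, per kilobase of the longest transcript and by counts, in both libraries. DUSP4 (chromosome 8, 29333064 to 29350668, minus strand) had 7267 and 4782 counts, or 376.9 CPM [368.3, 385.7] in shNC and 262.1 [254.8, 269.7] in shDEPDC1B. Its log2 ratio of -0.52 [-0.58, -0.47] is 1.44-fold lower, below the 1.5-fold rule although the intervals of the levels lay far apart. Scaling by library totals brought it to a call (-0.62), as did subtracting the trend on mean expression (-0.605). DUSP5 (chromosome 10, 110497838 to 110511544, plus strand), a nuclear phosphatase specific for ERK, had 2130 and 1579 counts and a log2 ratio of -0.35 [-0.45, -0.26]. DUSP6 (chromosome 12, 89347232 to 89353271, minus strand), the cytoplasmic ERK phosphatase, had 495 and 507 counts. Its levels of 25.7 CPM [23.5, 28.0] and 27.8 [25.4, 30.3] overlapped, and its log2 ratio was 0.11 [-0.07, 0.30]. DUSP4 therefore differed from DUSP6 by 1.56-fold in its ratio (log2 -0.64 [-0.83, -0.45]), and DUSP5 from DUSP6 by 1.38-fold (-0.47 [-0.67, -0.26]). DUSP4 and DUSP5 stayed closer to each other (-0.17 [-0.28, -0.06]). DUSP6 gave 5.00% [4.58, 5.45] of the counts of these 3 genes in shNC and 7.38% [6.77, 8.03] in shDEPDC1B.

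**Figure D1:**
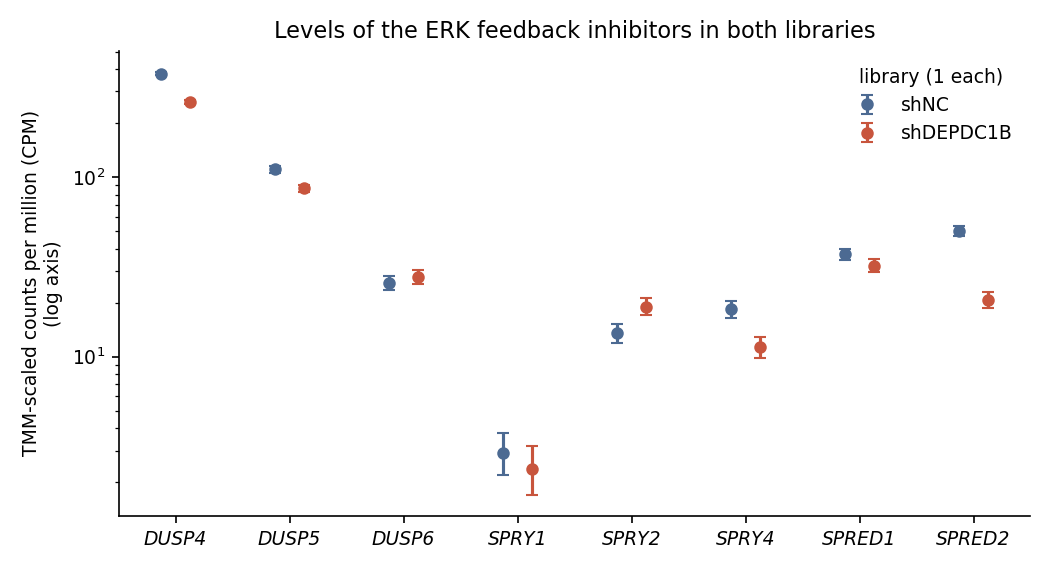
TMM-scaled CPM of each gene (log axis) in the shNC library (blue) and the shDEPDC1B library (red), with exact Poisson 95% intervals of counting error and 1 library per group. SPRED2 went from 49.95 to 20.6 CPM and SPRY4 from 18.3 to 11.3, SPRY2 stood higher in shDEPDC1B, and the intervals of DUSP6, SPRY1 and, narrowly, SPRED1 overlapped.

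**Figure D2:**
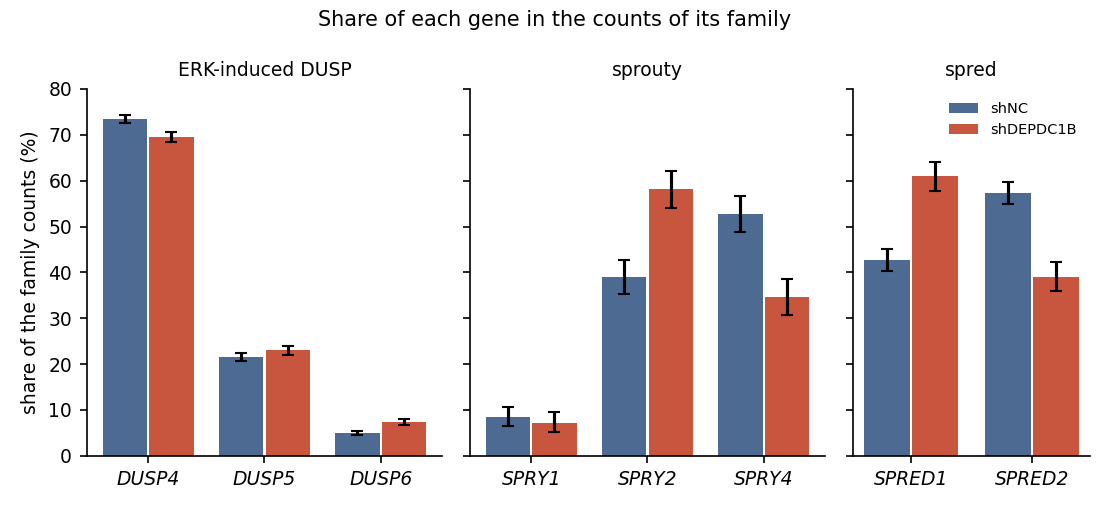
Share of each gene in the estimated counts of its family (percent, not corrected for transcript length) in shNC (blue) and shDEPDC1B (red), with exact Clopper-Pearson 95% intervals as error bars. SPRY2 and SPRED1 held the larger share of SPRY2 with SPRY4, and of SPRED1 with SPRED2, in shDEPDC1B, and the smaller share in shNC.

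As a sum the 8 genes were at 634.8 CPM in shNC and 461.9 in shDEPDC1B, a log2 ratio of the sums of -0.46 [-0.50, -0.42]. DUSP4 supplied 59.4% [58.5, 60.2] of these counts in shNC and 56.7% [55.7, 57.8] in shDEPDC1B, so the sum mostly follows DUSP4. Levels of different genes were compared per kilobase of the longest annotated coding transcript. In shNC the order was DUSP4 at 68.1 CPM per kilobase, DUSP5 at 43.2, SPRED2 at 12.2, DUSP6 at 5.84, SPRY2 at 4.98, SPRED1 at 4.77, SPRY4 at 3.71 and SPRY1 at 1.11. The counting intervals of the neighbours DUSP6 and SPRY2, and of SPRY2 and SPRED1, overlapped there. In shDEPDC1B the order was DUSP4 at 47.3, DUSP5 at 33.9, SPRY2 at 7.02, DUSP6 at 6.32, SPRED2 at 5.03, SPRED1 at 4.14, SPRY4 at 2.29 and SPRY1 at 0.904, and only SPRY2 and DUSP6 overlapped among neighbours. SPRED2 thus stood at rank 3 of the 8 in shNC and at rank 5 in shDEPDC1B. These ranks depend on the length used: per kilobase of the median coding transcript SPRED2, which has 6 annotated coding transcripts of very unequal length, stood at rank 2 in shNC and 3 in shDEPDC1B. DUSP4 came first and SPRY1 last in both libraries with either length.

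The log2 ratio in these libraries followed transcript length across genes, and the 8 genes differ in length. Their longest coding transcripts run from 2557 nucleotides (DUSP5) to 7780 (SPRED1), with a median of 4248.5 beside 3405 for all assessed genes. With assessed genes put into deciles by length, the median log2 ratio was 0.56 in the shortest decile and -0.625 in the longest. SPRED2 (4097 nucleotides) lies in a decile with a median of -0.15, above its own -1.28. SPRY4 (4938 nucleotides) and DUSP4 (5537 nucleotides) lie in a decile with a median of -0.25, above both of their ratios. SPRED1 lies in the longest decile, and its ratio of -0.21 was above that decile's median of -0.625. DUSP5, SPRY1 and SPRY2 lie together in a decile with a median of 0.225. DUSP5, at -0.35, was below it and SPRY2, at 0.50, above it, while the interval of SPRY1 held it. DUSP6 (4400 nucleotides) lies in the decile of SPRED2, and its ratio of 0.11 was above the median there.

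When a linear fit on length and GC content was subtracted, SPRED2 was at -1.16 and remained called lower. SPRY4 was then at -0.57 and no longer called. SPRED1 changed sign, from -0.21 to 0.37, and DUSP5 went from -0.35 to -0.58, DUSP4 from -0.52 to -0.33 and DUSP6 from 0.11 to 0.30. A loess on transcript length alone gave -1.19 for SPRED2, -0.49 for SPRY4, 0.30 for SPRED1, -0.565 for DUSP5, -0.24 for DUSP4 and 0.25 for DUSP6. SPRY2 stayed at 0.44 and 0.32 in these fits. Whether length played a part in any single ratio was not tested.

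**Figure D3:**
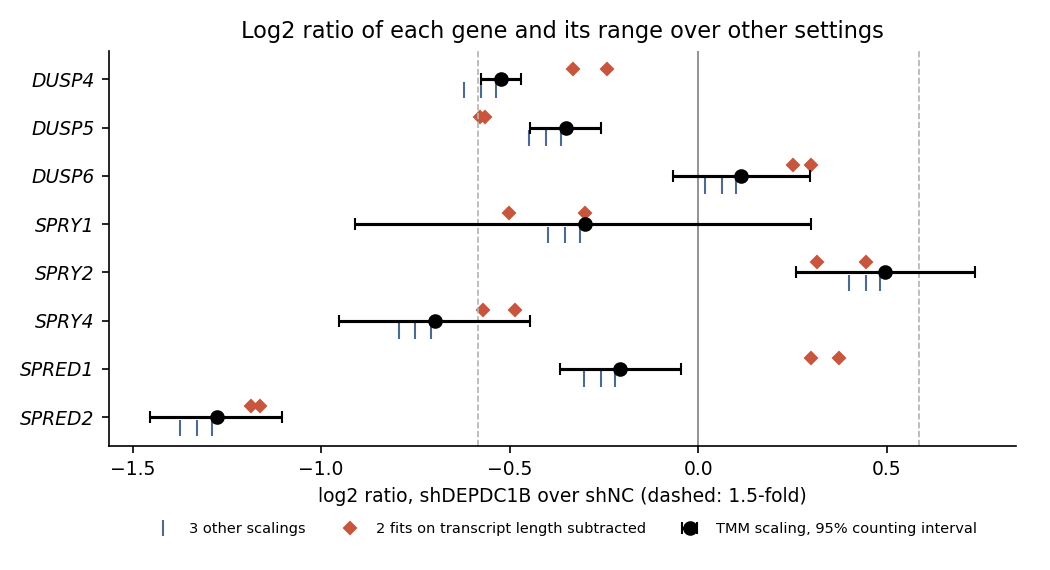
Log2 ratio of shDEPDC1B over shNC for each gene (black, with its exact 95% counting interval), under 3 other scalings of the libraries (blue ticks) and after 2 fits on transcript length were subtracted (red diamonds). Dashed lines mark 1.5-fold; SPRED2 lay below the lower line in every setting drawn, SPRY4 came inside it after the length fits, and SPRED1 changed sign.

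**Figure D4:**
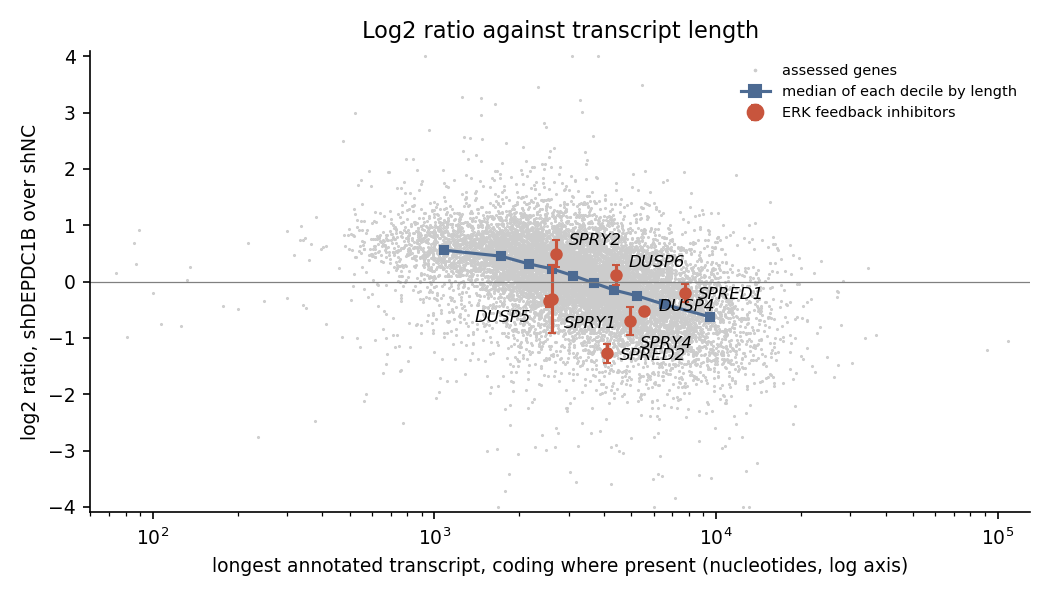
Log2 ratio of shDEPDC1B over shNC against the longest annotated transcript (log axis, nucleotides) for assessed genes (grey, values beyond the axis drawn at its edge), the median of each decile by length (blue) and the 8 genes with 95% counting intervals (red). The medians fall from 0.56 to -0.625 with length. SPRED2, SPRY4, DUSP4 and DUSP5 lie below the median of their decile, SPRED1, SPRY2 and DUSP6 above it, and the interval of SPRY1 holds it.

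For each gene the 3′ untranslated region of its longest annotated coding transcript was searched for ATTTA. This is the pentamer of AU-rich elements found in many short-lived transcripts. Other transcripts of the genes were not searched, and which of them these cells use was not tested. SPRED1 held 24 in 5585 nucleotides, SPRY4 8 in 3782, DUSP4 6 in 3962, SPRED2 5 in 2650, SPRY1 4 in 1209, SPRY2 2 in 782 and DUSP6 1 in 2022, while DUSP5 held 0 in 1118. Per kilobase SPRED1 had 4.30, SPRY1 3.31, SPRY2 2.56, SPRY4 2.12, SPRED2 1.89, DUSP4 1.51 and DUSP6 0.495, beside a median of 1.69 over 12207 assessed coding genes. SPRED1 had the highest density of the 8, and DUSP5 and DUSP6 were below that median, as was DUSP4.

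The targeted gene DEPDC1B had 329 counts in shNC and 39 in shDEPDC1B, a log2 ratio of -2.997 [-3.51, -2.52] in the direction of the labels. The libraries held 18647290 and 18862371 counts. The 6 epithelial markers differed widely in level. KRT8 was at 5498 and 5674 CPM, KRT18 at 5144 and 5351, and KRT7 at 2015 and 2440. CDH1 was at 159.6 and 145.2 CPM and KRT19 at 22.25 and 26.04. EPCAM was low, at 1.92 and 3.56 CPM (37 and 65 counts), and was called higher. Of the leukocyte, fibroblast and endothelial markers 2 of 8, 2 of 6 and 0 of 6 were assessed, with summed levels of at most 21.65 CPM, and CD3E, DCN and KDR were at 0 in both libraries. The part of other cells in the results was not tested. CD14 was called higher, at 107 and 175 counts.

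Beside the 8 stand the other phosphatases of the MAP kinase family and the remaining sprouty and spred genes. This list and those that follow were chosen with earlier results of these data known. Of 9 such genes 7 were assessed, 4 were called higher and 0 lower, with a median log2 ratio of 0.615. Over all assessed genes 19.2% were called higher and 19.6% lower. DUSP10, a phosphatase of JNK and p38, had 125 and 258 counts (log2 ratio 1.125 [0.81, 1.44]). DUSP7, a cytoplasmic ERK phosphatase related to DUSP6, had 50 and 95 counts (1.01 [0.50, 1.53]). DUSP16, a JNK phosphatase, had 1066 and 1727 (0.78 [0.665, 0.89]), and DUSP8, also directed at JNK and p38, 78 and 113 (0.615 [0.19, 1.05]). The deposited values of DUSP16 and DUSP8 are not whole hundredths, as means over gene copies would be, so their counts are uncertain. DUSP8 was no longer called with DESeq2 size factors, with library totals or after the length and GC fit (0.455), which left 3 higher and 0 lower with a median of 0.455. The same fit left 1685 of 12997 assessed genes higher and 1736 lower. The 3 genes not called, named after their values were seen, were DUSP1 (9183 and 8268 counts, -0.07 [-0.11, -0.03]), DUSP9 (31 and 28 counts) and SPRED3 (0.45 [0.10, 0.80]). DUSP2 and SPRY3 were below 30 counts in both libraries.

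By textbook class, the summed level of the 4 nuclear inducible phosphatases DUSP1, DUSP2, DUSP4 and DUSP5 was 963.7 CPM in shNC and 802.0 in shDEPDC1B (log2 ratio of the sums -0.265 [-0.30, -0.23]). That of the 3 cytoplasmic ERK phosphatases DUSP6, DUSP7 and DUSP9 was 29.9 and 34.5 CPM (0.21 [0.04, 0.375]). That of the 3 JNK and p38 phosphatases DUSP8, DUSP10 and DUSP16 was 65.8 and 115.0 CPM (0.805 [0.70, 0.91]). Single genes carry these last 2 sums. DUSP6 gave 495 of the 576 cytoplasmic counts in shNC and 507 of 630 in shDEPDC1B. DUSP16, whose counts are uncertain, gave 1066 of the 1269 JNK and p38 counts in shNC and 1727 of 2098 in shDEPDC1B. Of these nuclear genes DUSP4 differed by 1.44-fold, DUSP5 by 1.28-fold and DUSP1 by 1.05-fold, all lower in shDEPDC1B with intervals that leave out equality, and none met the 1.5-fold rule.

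Of 18 other transcripts that ERK is known to induce 4 were called higher and 3 lower, with a median of 0.20. Beside them 19.2% of all assessed genes were called higher and 19.6% lower. Higher were the EGFR ligand AREG (log2 ratio 1.16 [1.06, 1.26]), the cytokine LIF (0.95 [0.885, 1.02]) and, named after their values were seen, FOS (0.62) and MAFF (0.63). Lower were the ephrin receptor EPHA4 (136 and 15 counts, -3.10 [-3.98, -2.33]), the ETS factor ETV5 (1023 and 578 counts, -0.74 [-0.89, -0.595]) and, named after its value was seen, PHLDA1 (-0.60). ETV5 and DUSP6 are both commonly used as readouts of ERK, and in these libraries ETV5 was 1.675-fold lower while DUSP6 overlapped. ETV4, of the same list and named after its value was seen, was 1.49-fold higher and so short of the call (553 and 779 counts, 0.57 [0.415, 0.73]). Of the 18 transcripts 11 had an interval wholly above equality and 4 one wholly below, beside 38.9% and 34.9% of all assessed genes. With DESeq2 size factors or library totals only AREG and LIF were still called higher, and after the length and GC fit 2 of the 18 were higher and 2 lower. Over the 12997 assessed genes in that fit 1685 were higher and 1736 lower.

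In the cascade from receptor to ERK, 10 of 26 genes were called lower and 3 higher, with a median log2 ratio of -0.32. The shares over all assessed genes were 19.6% lower and 19.2% higher. The receptor EGFR had 6563 and 1714 counts (-1.86 [-1.935, -1.78]). PTPN11, which encodes the phosphatase SHP2, was at -0.88 [-0.94, -0.83], and the receptor FGFR1 was higher at 0.935 [0.87, 1.004]. The list's transcripts were long (median 5631.5 nucleotides), and after the length and GC fit 4 were lower and 2 higher, with a median of -0.10. Beside them 1736 of 12997 assessed genes were lower after this fit and 1685 higher. EGFR was at -1.35 after the fit and FGFR1 at 1.07, while PTPN11, at -0.47, was no longer called.

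Of 13 other negative regulators of the cascade 6 were called lower and 1 higher, with a median of -0.55. For this list and the next, the shares over all assessed genes were 19.6% lower and 19.2% higher. CBL, the ubiquitin ligase that binds SPRY2 and acts on EGFR, had 1281 and 330 counts (-1.88 [-2.06, -1.70]). NF1, the RAS-inactivating partner of SPRED1 and SPRED2, had 4058 and 2077 (-0.89 [-0.96, -0.81]), with the caution that it has partial copies in the genome. The receptor inhibitor LRIG1 was at -1.10 [-1.49, -0.72], and its deposited value is not in whole hundredths, and RASSF1 was higher at 1.07 [0.74, 1.41]. After the length and GC fit 2 were lower and 1 higher, with CBL at -1.275 and NF1 at -0.16. Of the 12997 assessed genes in this fit 1736 were lower and 1685 higher. Among 15 binding partners and turnover enzymes of the feedback inhibitors, a list that shares NF1, CBL, PTPN11 and GRB2, among others, with those above, 5 were called lower and 3 higher, with a median of -0.08. With library totals 1 was higher, and after the length and GC fit 2 were lower and 2 higher. The autophagy receptor NBR1, a partner of SPRED2, had 3552 and 1572 counts (-1.10 [-1.18, -1.01]).

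Of 10 transcription factors that act on ERK target genes 4 were called lower and 1 higher, with a median of -0.42. All assessed genes had 19.6% called lower and 19.2% higher. ELK1, an ETS factor that ERK phosphorylates, was the higher one, with 245 and 679 counts (1.55 [1.34, 1.77]). ETS1 was at -0.68 [-0.82, -0.55], ELK3 at -0.90 [-0.995, -0.81] and ATXN1L, a partner of the repressor Capicua, at -0.75 [-0.89, -0.62]. The fourth lower gene, named after its value was seen, was the ETS repressor ETV3 (-0.69). After the length and GC fit 1 was lower, ELK3 at -0.655, and 1 higher, ELK1 at 1.33. ETS1 (-0.35), ATXN1L (-0.40) and ETV3 (-0.40) were then no longer called. Beside them 1736 of 12997 assessed genes were lower after this fit and 1685 higher.

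**Figure D5:**
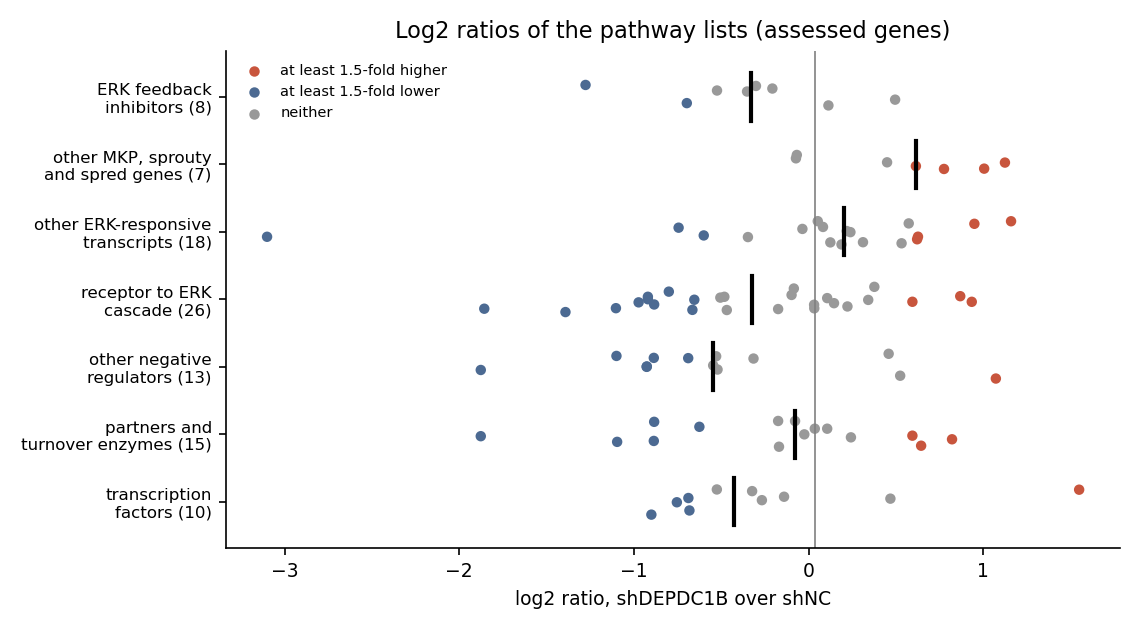
Log2 ratio of shDEPDC1B over shNC for the assessed genes of each list (points, number in parentheses), coloured red where at least 1.5-fold higher and blue where at least 1.5-fold lower with an interval that leaves out equality. Black bars are list medians and the grey line is the median of all assessed genes (0.04); the 8 feedback inhibitors have a median of -0.33 and the other phosphatase, sprouty and spred genes one of 0.615.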

How the data were processed

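The values are estimated counts for each gene symbol, which the authors deposited after running Bowtie2 and RSEM on hg38, per the submitters' processing notes. Versions, annotation and strandedness are each not given in the sources used here. Estimated counts were rounded to whole numbers and scaled with TMM factors (1.03 for shNC, 0.967 for shDEPDC1B; edgeR 4.0.16, R 4.3.3). No test could be run with 1 library per group. Intervals were computed in SciPy 1.17.1. Depths of 18647290 and 18862371 counts set the counting intervals, which miss culture, library and read assignment error. RSEM splits shared reads by a model: DUSP5 has a copy, DUSP5P1, with 9 and 5 counts, and SPRY4 overlaps SPRY4-AS1, with 8 and 8. Lengths, GC content and gene coordinates are from GENCODE 29 and were found for 94.0% of assessed genes. The calculation of ratios and calls was tested on simulated data. The genes and lists were chosen with earlier results of these data known. Named were all 8 genes, DEPDC1B, and up to 4 called genes per list, those with the interval bound farthest from equality; some listed genes are counted but not reported here by name. The 11 alternatives covered scaling (DESeq2 1.42.0 size factors, library totals, upper quartile), minimum counts, fold, a prior count, fits on expression and length, and coding genes alone. Genes most like a member in pattern were not sought, since 2 libraries give each gene a single ratio.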

Additional observations from a re-analysis of the deposited data

How the results depend on the processing

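SPRED2 was called lower in all 11 alternatives, from -1.16 to -1.37. SPRY4 was called lower in 8 of 11. At a fold of 2, 1 of the 8 genes was lower, with 1243 assessed genes lower and 812 higher. After the length and GC fit 1 was lower, with 1736 of 12997 assessed genes lower and 1685 higher. After the loess on length 1 was lower, with 1940 of 12997 assessed genes lower and 1676 higher. Of the 8 genes 3 were lower with library totals and with the trend on mean expression subtracted, DUSP4 being the third. Beside them 3207 of 13850 assessed genes were lower with library totals, and 2729 of 13820 with that trend subtracted. Of the 8 genes 0 were higher in any alternative. The median of the 8 ran from -0.29 to -0.42. SPRED1 changed sign in 2 alternatives, and the other 7 genes kept theirs in each one that gave a value. With library totals 61.2% of all calls were lower, against 50.4% with TMM. At a fold of 2 the cascade from receptor to ERK had 3 lower and 0 higher genes. A minimum of 100 counts left out SPRY1. No paired analysis was possible because each group has 1 library, and for the same reason no library could be left out. At 56 and 43 counts SPRY1 allows no direction.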
